A study of Homo sapiens with 5 samples.

Results

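The basic helix-loop-helix (bHLH) transcription factor genes are described here in H9, a line of human embryonic stem cells. They were taken as the rows of the deposited expression table whose transcription factor family is given as bHLH, which are 92 of its 33857 listed genes. The measurement was poly(A+) RNA-seq of stem cell cultures, with 2 samples of the mock control and 3 of CFIm25-m, and no treatment is named for either group. CFIm25 is the 25 kDa subunit of a pre-mRNA cleavage factor and is encoded by NUDT21. The labels say only control, and the study describes its mock controls as 2 clones given the CRISPR vector with no guide against NUDT21. The labels call the edited group a knockout, whereas the study's methods describe 3 single-cell clones, each made with its own gRNA near the start codon, that keep a reduced amount of a shortened CFIm25 protein. The 3 CFIm25-m samples are therefore separate clones and no 2 of them share a gRNA, and the p-values measure the spread between these samples.

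bHLH proteins bind DNA as dimers, through a basic region next to 2 helices joined by a loop. Most bind an E-box, written CANNTG. E proteins pair with lineage factors such as the neurogenic and muscle factors, and ID proteins, which lack the basic region, take E proteins out of these pairs. HES and HEY proteins are repressors, many of them Notch targets, and several also bind an N-box, written here as CACNAG. ID genes are common targets of BMP signalling through SMAD proteins. In pluripotent stem cells MYC and MYCN support growth, while most lineage factors of the family are silent or low.

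The sequences upstream of the RefSeq starts of HES3 and the 4 ID genes are shown first. These 5 were chosen for the smallest p-values for a decrease among the bHLH genes with a mean normalized count of at least 100. Each is the 250 bases before the RefSeq start on GRCh38.p14, read along the strand of the gene. The ID2 and ID3 windows lie within the gene positions as deposited, which start farther upstream. The ID1 window ends just past the deposited start. Capitals mark any match, on either strand, to the E-box CANNTG, the N-box CACNAG or the TATA box TATAAA. HES3 is read from chr1:6243929-6244178 on the plus strand, ID1 from chr20:31605039-31605288 on the plus strand, ID2 from chr2:8681806-8682055 on the plus strand, ID3 from chr1:23559502-23559751 on the minus strand and ID4 from chr6:19837120-19837369 on the plus strand.
HES3: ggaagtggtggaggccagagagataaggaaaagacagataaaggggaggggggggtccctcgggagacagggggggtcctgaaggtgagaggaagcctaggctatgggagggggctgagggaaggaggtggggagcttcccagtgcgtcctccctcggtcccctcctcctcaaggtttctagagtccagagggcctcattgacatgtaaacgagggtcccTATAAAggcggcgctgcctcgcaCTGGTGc
ID1: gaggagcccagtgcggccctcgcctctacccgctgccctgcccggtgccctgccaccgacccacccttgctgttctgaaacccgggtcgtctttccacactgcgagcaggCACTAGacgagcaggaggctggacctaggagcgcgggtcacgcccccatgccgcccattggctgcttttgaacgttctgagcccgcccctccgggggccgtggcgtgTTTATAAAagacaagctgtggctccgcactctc
ID2: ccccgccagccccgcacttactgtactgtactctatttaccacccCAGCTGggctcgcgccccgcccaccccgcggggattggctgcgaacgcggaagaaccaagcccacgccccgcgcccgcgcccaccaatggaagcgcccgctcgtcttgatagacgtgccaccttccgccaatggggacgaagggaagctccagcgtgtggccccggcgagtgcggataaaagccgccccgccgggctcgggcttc
ID3: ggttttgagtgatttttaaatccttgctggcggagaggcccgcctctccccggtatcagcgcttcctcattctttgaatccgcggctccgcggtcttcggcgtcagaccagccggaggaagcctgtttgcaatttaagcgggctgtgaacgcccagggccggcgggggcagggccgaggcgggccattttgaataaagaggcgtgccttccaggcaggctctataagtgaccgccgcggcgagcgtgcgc
ID4: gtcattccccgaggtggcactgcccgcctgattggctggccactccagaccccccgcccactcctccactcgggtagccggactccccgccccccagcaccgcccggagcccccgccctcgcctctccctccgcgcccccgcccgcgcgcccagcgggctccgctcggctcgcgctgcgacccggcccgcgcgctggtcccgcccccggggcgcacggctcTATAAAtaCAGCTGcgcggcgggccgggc
In HES3 an N-box lies on the minus strand 7 bases before the start, and a TATA box lies 30 bases before it. The ID1 sequence holds an N-box 140 bases before the start. It also holds a TATA box on each strand, and the 2 matches overlap. ID4 has a TATA box 29 bases and an E-box 21 bases before its start, whereas ID2 has an E-box 205 bases before its start and no TATA box. None of these letters was found in the ID3 window. Of 27305 RefSeq windows of this length, 62.2% held CANNTG, 32.0% held CACNAG and 11.1% held TATAAA. The shares among the 75 bHLH genes with a window were 58.7%, 22.7% and 12%. The palindromic E-box CACGTG, which is also a CANNTG match, was in 9.33% of the bHLH windows and in 6.49% of all windows. GGCGCC, a GC-rich element of BMP targets, was in 24% and 16.1%, and in none of the 5 sequences shown. The bHLH windows had a median GC content of 64.8%, against 58% for all windows. These matches are descriptions of sequence only.

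The recovered depth was between 18754108 and 23372391 reads per sample. Values are normalized counts, which are reads scaled by the size factor of the sample. They were tested with limma-trend on log2(normalized count + 1) for the 19232 genes at 10 or more in at least 2 samples, with Benjamini-Hochberg adjustment and a threshold of 0.05. NUDT21 RNA was at 6503 and 6398 in mock control and at 4035, 3281 and 3400 in CFIm25-m. Its log2 fold change was -0.86 (limma-trend, adjusted p = 0.00431). All 9 pluripotency markers were tested and limma-trend called 0 of them. At an unadjusted p under 0.05, 3 were lower (DNMT3B, LIN28A and SALL4) and 0 were higher. Across all tested genes limma-trend called 0.936% lower and 0.941% higher, and 7.15% were lower and 7.99% higher at that unadjusted level. For these 9 genes edgeR called 0 and DESeq2 called 1 lower, SALL4. Every clone lay below both controls for 4 of the 9 and above both for 3. Over all tested genes these shares were 19.8% and 17%. Without clone 3, limma-trend called DNMT3B, LIN28A and SALL4 lower and POU5F1 higher. The summed normalized count of the 9 markers was 218042 to 222065 in mock control and 191864 to 205301 in CFIm25-m. Of 9 tested neural ectoderm markers, limma-trend called 1 lower and 0 higher, with 2 lower and 2 higher at an unadjusted p under 0.05. DCX fell, at 282 and 273 against 124, 135 and 118. SOX10 was the other gene lower at the unadjusted level, at 131 and 134 against 91.2, 104 and 94.3. Every clone lay below both controls for 5 of the 9 genes (DCX, SOX10, ELAVL3, TUBB3 and SOX1) and above both for 2. The median log2 fold change of the list was -0.46. ELAVL4 was at 17.3 and 11.6 against 43.1, 33.3 and 77.9 (limma-trend, adjusted p = 0.068). STMN2 was at 5.76 and 2.90 against 12.03, 11.7 and 22.1 (limma-trend, adjusted p = 0.162), and passed the filter through CFIm25-m alone. All clones lay above both controls for ELAVL4 and STMN2. In this list edgeR called DCX alone, and DESeq2 called DCX lower and ELAVL4 higher. The sum over the neural list, most of it from NES, was 13838 to 14513 in mock control and 11416 to 14490 in CFIm25-m.

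Limma-trend, edgeR and DESeq2 called 0 of the tested markers of other lineages, which were 4 mesoderm, 3 endoderm and 1 trophoblast gene. At an unadjusted p under 0.05, 1 of these was higher, the endoderm list gene CXCR4, at 13.8 and 4.83 against 20.05, 27.9 and 23.1. CXCR4 passed the filter through CFIm25-m, as only 1 mock control reached 10, so its p-value depends on that selection. HHEX of the same list had a log2 fold change of -0.56, at 16.1 and 14.5 against 18.0, 7.20 and 7.69. The trophoblast list gene KRT7 was at 149 and 172 against 266, 251 and 146, and passed limma-trend without clone 3, at an adjusted p of 0.0196. TFAP2A of the trophoblast list was below the filter and went the other way. It was at 4.61 and 7.72 against 1.00, 0.90 and 0.96, with all clones below both controls. Summed normalized counts in mock control and CFIm25-m were 2737 to 2842 and 2791 to 3797 for the mesoderm list, 54.0 to 74.9 and 72.0 to 107 for the endoderm list, and 164 to 191 and 152 to 281 for the trophoblast list. Most of the mesoderm sum came from KDR alone, at 2608 and 2684 against 2831, 2662 and 3635. Most of the trophoblast sum came from KRT7. The defining endoderm genes SOX17 and FOXA2 and the trophoblast gene CDX2 had at most 3 reads in every sample. The part of these marker genes in the bHLH values was not tested. An exact permutation test of 1 gene has 10 arrangements to draw on in this design and cannot give a p below 0.1.

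Of the 92 bHLH genes, 68 passed the filter and 24 did not. One gene fell, HES3, and 0 rose. Across all tested genes, limma-trend called 1.88%, with 0.936% lower and 0.941% higher. At an unadjusted p under 0.05, 11 bHLH genes were lower and 2 were higher, while 7.15% of all tested genes were lower and 7.99% higher at that level. Of those bHLH genes, MYF5, BHLHE23 and HES7 passed the filter only through the group where they were high. They are also in the counts of genes with every clone below or above both controls that follow. The count test edgeR also called HES3 alone, against 0.905% of all tested genes lower and 0.905% higher. DESeq2 called HES3 and ID3 lower and 0 bHLH genes higher, against 1.46% and 1.81% of all tested genes. For 16 bHLH genes, or 23.5%, every clone lay below both mock controls, against 19.8% of all tested genes. Every clone lay above both mock controls for 6, or 8.82%, against 17% of all tested genes. The median log2 fold change was -0.02 for the 68 genes and -0.01 for all tested genes. Among the 42 tested bHLH genes with a mean normalized count of at least 100, 39 had fitted changes within 1.5-fold, or 92.9%, against 95.8% of all tested genes at that level. The exceptions were HES3, ID3 and ID4.

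**Figure D1:**
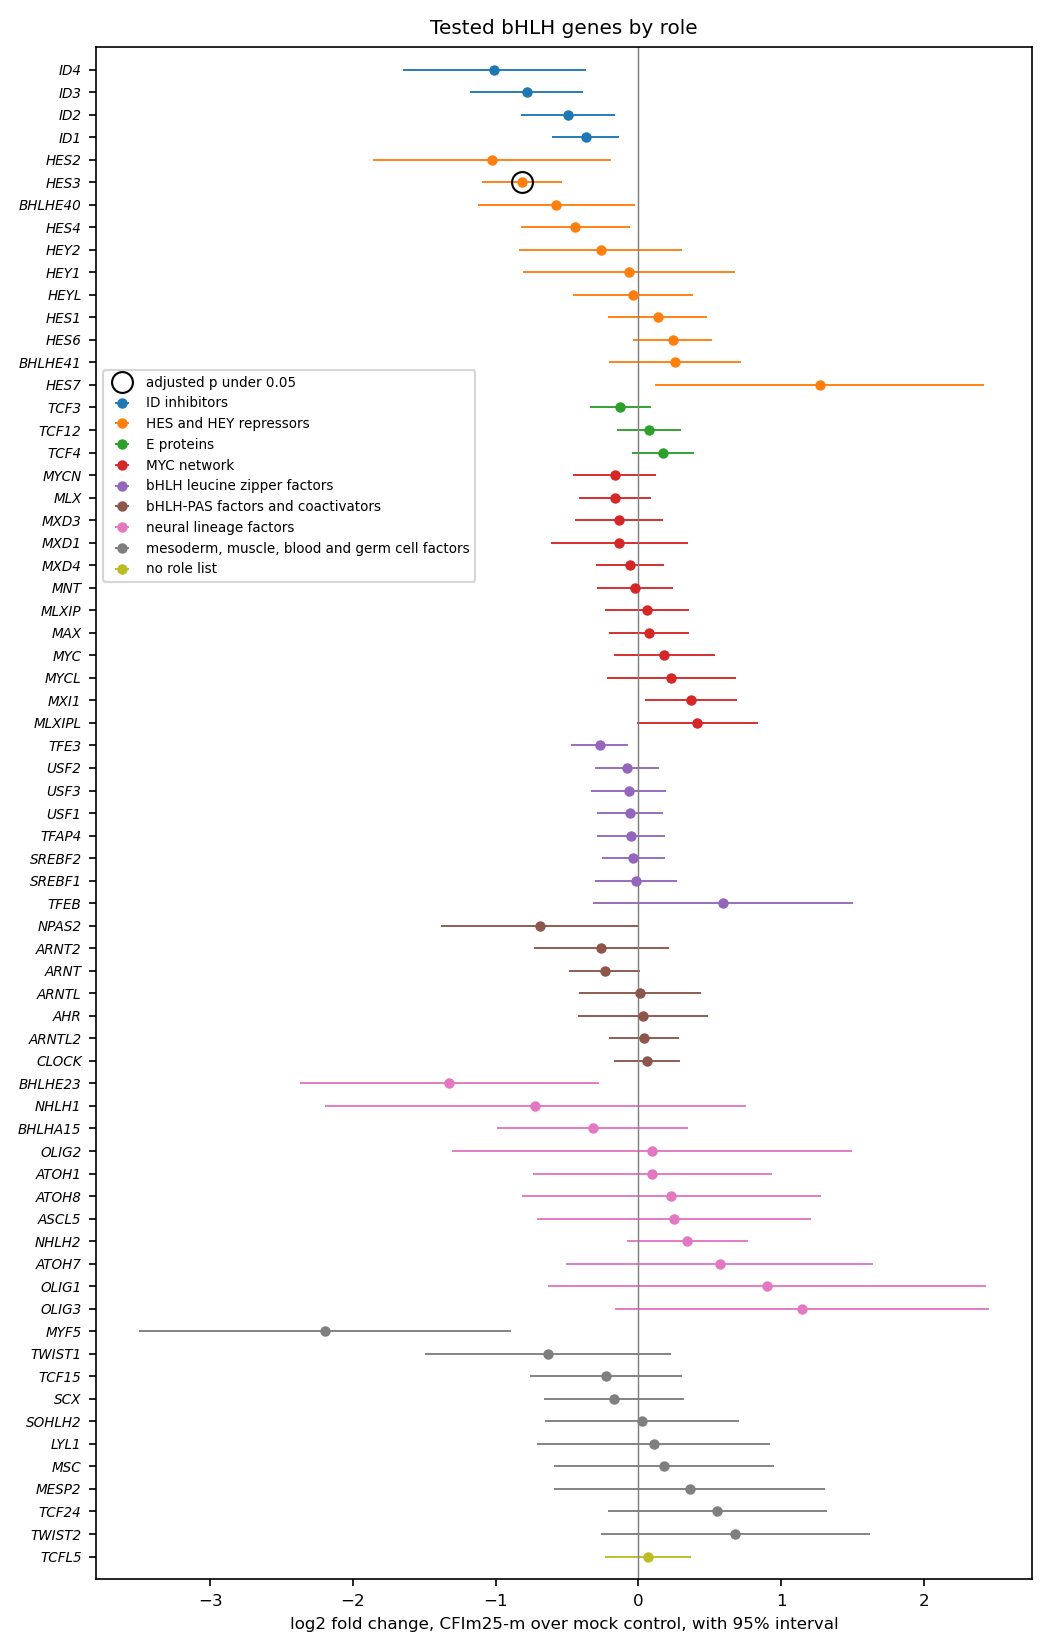
Log2 fold change of CFIm25-m over mock control for the tested bHLH genes, all but 1 of the 68 (points), with its 95% interval from limma-trend (lines), grouped and coloured by role. The circled gene, HES3, is the one with an adjusted p under 0.05, and all 4 ID genes have intervals below 0.

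HES3, a HES family gene known from neural precursor cells, was high in these stem cells and was lower in every CFIm25-m clone. It lies on chromosome 1 from 6244192 to 6245578 on the plus strand (ENSG00000173673). Its normalized count was 989 and 981 in mock control and 613, 481 and 592 in the 3 clones. The groups did not overlap, and the 2 mock controls were closer to each other than any 2 of the clones. The log2 fold change was -0.82 with a standard error of 0.13 and a 95% interval of -1.10 to -0.54 (limma-trend, adjusted p = 0.0105). The adjusted p was 0.0137 by edgeR and 1.4e-05 by DESeq2. It was 0.157 without mock control 1, 0.14 without mock control 2 and 0.127 without the variance trend in limma, so the call rests on both controls and on the variance model, while the log2 fold change stayed between -0.88 and -0.71 in every setting. The 10 tested genes nearest to HES3 had a median log2 fold change of 0.01, and 0 of them were called by limma-trend. In bulk RNA, fewer cells that express a gene and less RNA of it per cell cannot be told apart.

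All 4 ID genes were lower in every clone than in both mock controls, but none passed the adjusted threshold in limma-trend or edgeR. At a mean normalized count of at least 100, where the ID genes lie, this order held for 9 of 42 tested bHLH genes. It held for 3079 of all 12330 tested genes of that level. ID1 was at 2848 and 2842 in mock control and at 2467, 2015 and 2146 in CFIm25-m. ID2 was at 400 and 332 against 287, 239 and 253. ID3 was at 2332 and 2515 against 1732, 1525 and 1056. Clone 1 had the highest value of the clones in each of these genes. ID4 was at 565 and 612 against 475, 262 and 199, so that clone 1 lay close to the controls and clones 2 and 3 lay far below. The log2 fold changes were -0.37 for ID1, -0.49 for ID2, -0.78 for ID3 and -1.01 for ID4. The limma-trend adjusted p-values were 0.126, 0.146, 0.0614 and 0.131 in the same order, and the unadjusted p was under 0.05 for all 4 genes. DESeq2 gave ID3 an adjusted p of 0.00173, and edgeR gave it 0.064. ID3 passed limma-trend without clone 3, at an adjusted p of 0.00273, and ID4 passed without clone 1, at 0.0198. Over all the alternatives the adjusted p ran from 2.2e-07 to 0.388 for ID3 and from 8.7e-05 to 0.568 for ID4, with the lowest value in each case from the fit with a replicate block.

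**Figure D2:**
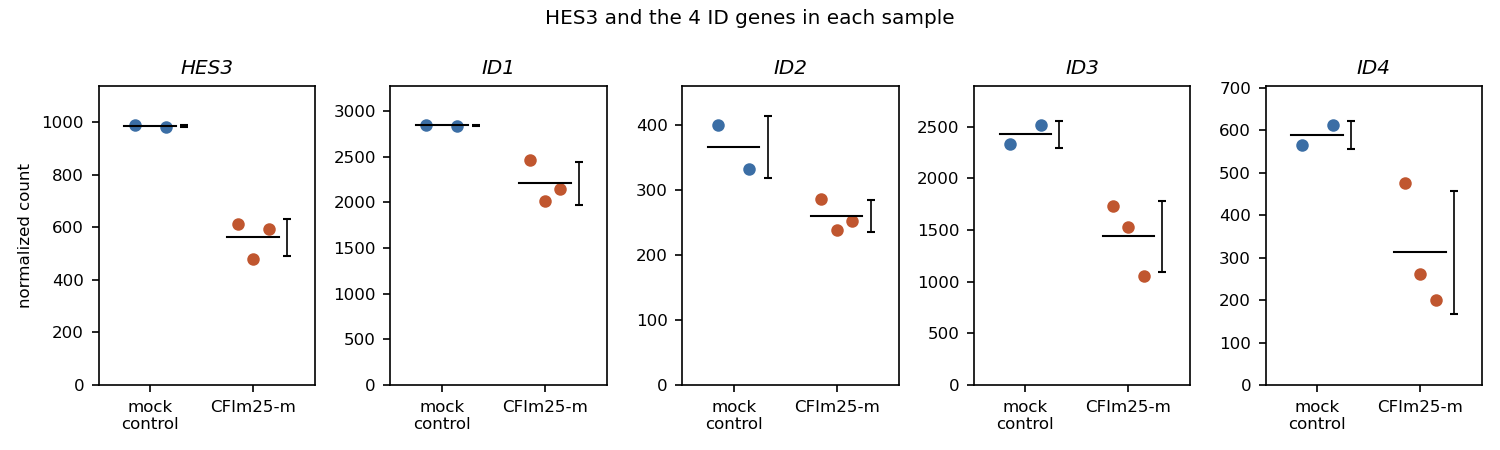
Normalized count of HES3, ID1, ID2, ID3 and ID4 in each of the 2 mock control and 3 CFIm25-m samples (points), with the group mean (long line) and the SD beside it (bars); each axis starts at 0. All clones lie below both controls for every gene shown, and the ID4 clones are spread from 199 to 475.

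The 4 ID genes lie on 4 regions of chromosomes 1, 2, 6 and 20, and the genes around them had medians near or above 0. The median log2 fold change of the 10 nearest tested genes was 0.15 around ID1, -0.03 around ID2, -0.02 around ID3 and 0.01 around ID4. Around ID1 the median differed between the clones, at 0.40, 0.26 and 0.02 in clones 1, 2 and 3. Limma-trend called 1 of the 10 genes around ID1 and 0 around each of the others. An antisense gene, AL022068.1, overlaps ID4 at a far lower level, with normalized counts that averaged 14.5 for mock control and 8.89 for CFIm25-m (limma-trend, adjusted p = 0.544). The same means were 588 and 312 for ID4. No strand setting is given for the counting, so reads of the pair cannot be told apart.

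Their level was set beside that of the E proteins, the partners that ID proteins bind. Summed per kb of gene model, the ID genes gave 4030 and 4116 in mock control and 3297, 2703 and 2528 in CFIm25-m. The E protein genes TCF3, TCF4 and TCF12 together gave 1372 and 1503 against 1377, 1415 and 1288, so that these ranges overlapped in 2 of the 3 clones. The ratio of ID to E protein RNA per kb was 2.94 and 2.74 in mock control and 2.39, 1.91 and 1.96 in the clones, and all the clones lay below both controls. Most of the ID sum came from ID1 and ID3, at 2307 and 1349 per kb in the mock control mean. ID2 and ID4 were at 166 and 251 per kb.

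Among the E proteins limma-trend called 0 of 3, and 0 had an unadjusted p under 0.05. TCF3, which encodes E12 and E47, was at 6676 and 7423 against 6433, 6745 and 6172, a log2 fold change of -0.13 with a 95% interval of -0.34 to 0.09. TCF12 had a log2 fold change of 0.07 and an interval of -0.15 to 0.30. For TCF4 these were 0.17 and -0.05 to 0.39, with every clone above both controls. All these intervals exclude a change as large as that fitted for HES3.

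Of the 13 HES and HEY repressor genes, 11 were tested, and HES3 was the only one called. At an unadjusted p under 0.05, 4 were lower (HES2, HES3, HES4 and BHLHE40) and 1 was higher (HES7). HES2 is a neighbour of HES3 on chromosome 1 and had few reads, at 30.0 and 24.1 against 10.02, 16.2 and 12.5. Its log2 fold change was -1.03 (limma-trend, adjusted p = 0.232). HES4 was at 159 and 193 against 122, 138 and 127, a log2 fold change of -0.44 (limma-trend, adjusted p = 0.266), while the 10 genes nearest to it had a median of 0.21. The stress and clock repressor gene BHLHE40 (also DEC1) was at 69.2 and 87.8 against 49.1, 62.1 and 46.2, a log2 fold change of -0.57 (limma-trend, adjusted p = 0.311). In these 3 genes no clone reached a control.

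HES7, the oscillating repressor of the segmentation clock, was near the filter at 2.31 and 5.79 in mock control. In CFIm25-m it was at 10.02, 9.003 and 12.5, and the log2 fold change was 1.27 (limma-trend, adjusted p = 0.285). HES7 passed the filter through CFIm25-m alone. HES6, which opposes HES1, was the most abundant HES gene per kb after HES3. It was at 738 and 814 against 819, 1052 and 889, a log2 fold change of 0.24 with a 95% interval of -0.04 to 0.52. HES1, the main HES target of Notch, was at 317 and 324 against 371, 403 and 292, so that the clones lay on both sides of the controls. Its interval was -0.21 to 0.48. HEY2 was at 310 and 329 against 185, 257 and 392, where clone 3 lay above the controls and the others below. In HES1 the order was the opposite, with clone 3 below the controls and the others above. HEY1, HEYL and BHLHE41 had log2 fold changes of -0.06, -0.04 and 0.26. HES5 had at most 3 reads in every sample and HELT was below the filter.

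**Figure D3:**
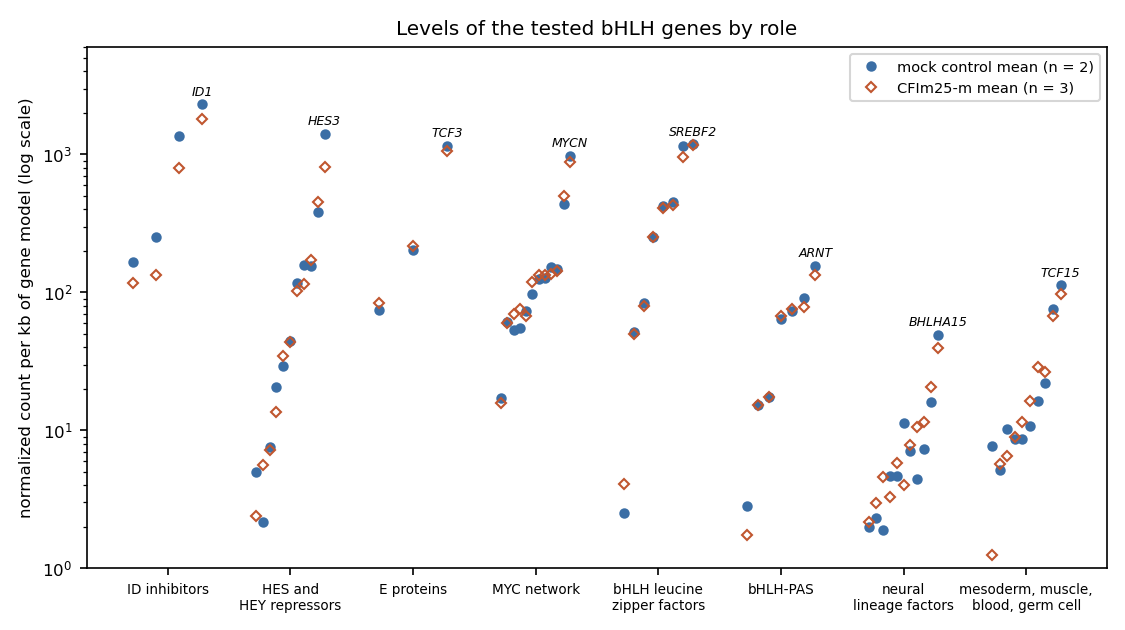
Mean normalized count per kb of gene model (log scale) of the tested bHLH genes, all but 1 of the 68, in mock control (filled circles, n = 2) and CFIm25-m (open diamonds, n = 3), ordered by level within each role, with the highest gene of each role named; the gene without a role list is not drawn. ID1 is the highest of all. The lists named neural and mesoderm reach only 49.2 (BHLHA15, not a neural gene) and 112 (TCF15) per kb in mock control.

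Per kb of gene model, ID1 had the highest mean level of all bHLH genes over the 5 samples, at 1998. SREBF2, TCF3, HES3, TFE3 and ID3 followed at 1172, 1100, 1049, 1039 and 1019, and MYCN was at 920. The order of these neighbours was not the same in both groups. In mock control HES3 was at 1413 per kb and stood above SREBF2 at 1188. In CFIm25-m it was at 806, below SREBF2 at 1161, and beside ID3 at 800.

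The MYC network is the MYC genes, their partner MAX, the MXD and MNT antagonists, and the nutrient-responsive MLX branch. All 12 listed genes were tested and limma-trend called 0, with 0 lower and 1 higher at an unadjusted p under 0.05. MYC was at 1351 and 1266 against 1217, 1874 and 1432, a log2 fold change of 0.18 with a 95% interval of -0.17 to 0.53. MYCN was at 2526 and 2568 against 2450, 2549 and 1873, with an interval of -0.46 to 0.13. MYCL was at 511 and 482 against 602, 763 and 428. The clones lay on both sides of the controls for MYC and MYCL, and clone 3 was the lowest for MYCN and MYCL. The 3 MYC genes summed to 1522 and 1504 per kb in mock control and to 1466, 1755 and 1282 in CFIm25-m.

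The gene with the unadjusted p under 0.05 was MXI1, a MYC antagonist, at 237 and 254 against 280, 350 and 326. Its log2 fold change was 0.37 (limma-trend, adjusted p = 0.266). MLXIPL, which encodes the glucose-responsive factor ChREBP, was at 255 and 281 against 287, 342 and 462, a log2 fold change of 0.41 with an interval of -0.01 to 0.84. These were the 2 network genes with every clone above both controls. MLX was at 629 and 663 against 586, 619 and 527, all clones below both controls, with a log2 fold change of -0.16. The other members, MAX, MXD1, MXD3, MXD4, MNT and MLXIP, had log2 fold changes between -0.14 and 0.08.

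Among the 8 tested leucine zipper factors, limma-trend called 0, with 1 lower and 0 higher at an unadjusted p under 0.05. That gene was TFE3, a lysosome and energy-sensing factor linked to exit from pluripotency. It was at 4889 and 5027 against 3963, 4302 and 4062, so that the 3 clones lay below both controls by a small amount. The log2 fold change was -0.27 with a 95% interval of -0.47 to -0.07 (limma-trend, adjusted p = 0.184). Without clone 3 the adjusted p was 0.0357 and the log2 fold change -0.26. SREBF2, the regulator of cholesterol synthesis genes, was at 8780 and 9178 against 8241, 9439 and 8637, with an interval of -0.26 to 0.18. USF1, USF2, USF3, TFAP4 and SREBF1 had log2 fold changes between -0.08 and -0.02. TFEB was low, at 14.98 and 13.5 against 15.03, 20.7 and 33.7.

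The bHLH-PAS genes encode sensors of oxygen, xenobiotics and the circadian clock. Of 8 listed genes 7 were tested, and limma-trend called 0, with 0 lower and 0 higher at an unadjusted p under 0.05. ARNT, the common partner of these sensors, was at 1052 and 987 against 865, 954 and 786, a log2 fold change of -0.24 with an interval of -0.48 to 0.01. ARNT2 was at 696 and 705 in mock control and at 719, 683 and 408 in CFIm25-m, so that only clone 3 stood apart. NPAS2 was at 36.9 and 33.8 against 25.1, 21.6 and 18.3, a log2 fold change of -0.69 with an interval of -1.39 to 0.00. The clock genes CLOCK, ARNTL (also BMAL1) and ARNTL2 had log2 fold changes of 0.06, 0.01 and 0.04. HIF1A, EPAS1 and 10 other genes of the role lists are given under other families in the table and are not members.

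The genes listed as neural lineage factors were low, and not every gene of this list, BHLHA15 among them, is a neural gene. Of 22 listed genes 12 were tested, and limma-trend called 0, with 1 lower and 0 higher at an unadjusted p under 0.05. BHLHE23 was that gene, at 12.7 and 12.5 against 5.01, 4.50 and 3.85, a log2 fold change of -1.33 (limma-trend, adjusted p = 0.221). It passed the filter through the mock controls alone. NHLH2 had the highest normalized count of the group, at 112 and 132 against 131, 175 and 161. Per kb BHLHA15 was the highest, and it was at 38.0 and 40.5 against 36.1, 35.1 and 24.0, all clones below both controls (limma-trend, adjusted p = 0.646). OLIG3 was at 4.61 and 13.5 against 37.1, 17.1 and 10.6, where clone 1 was the highest and clone 3 lay between the controls. NEUROD1, NEUROD4 and NEUROG2 had at most 3 reads in every sample.

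The mesoderm, muscle, blood and germ cell factors were tested for 10 of 19 listed genes, and limma-trend called 0, with 1 lower and 0 higher at an unadjusted p under 0.05. MYF5, a muscle determination gene, was at 10.4 and 13.5 in mock control and at 3.01, 1.80 and 0.96 in CFIm25-m. The groups did not overlap, but the CFIm25-m values stand for 1 to 3 reads. MYF5 passed the filter through the mock controls alone, so its change and p-value depend on that selection. On the log2(normalized count + 1) scale the change was -2.20 with an interval of -3.50 to -0.89 (limma-trend, adjusted p = 0.105). TCF15, a paraxial mesoderm factor also described in primed pluripotent cells, was at 153 and 196 against 117, 203 and 137. SCX, the tendon factor, was at 81.8 and 69.5 against 61.1, 66.6 and 73.1, and both genes overlapped between the groups. TWIST2 was at 25.4 and 35.7 against 31.1, 90.0 and 41.4, where clone 2 stood apart.

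TCFL5, the member with no role list, was at 453 and 518 against 453, 581 and 496. The 24 genes below the filter included 10 with at most 3 reads in every sample, which were ASCL3, BHLHE22, HAND2, HES5, MYF6, NEUROD1, NEUROD4, NEUROG2, TCF21 and TCF23. For these genes a difference was not detectable at this depth. Among the others, TAL1 was at 2.31 and 3.86 against 6.01, 13.5 and 6.73, and PTF1A was at 2.31 and 3.86 against 0, 0 and 0.96. Both had all clones on 1 side of the controls, at a few reads per sample. MITF was at 6.92 and 10.6 against 5.01, 8.10 and 2.89.

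Wide differences among the clones lay mostly in bHLH genes of low level. The highest clone was more than 2-fold above the lowest in 11 of 68 genes, or 16.2%, against 11.1% of all tested genes. These were ATOH7, HEY2, ID4, MSC, MYF5, NHLH1, OLIG1, OLIG2, OLIG3, TFEB and TWIST2, of which only HEY2 and ID4 had a mean normalized count of at least 100. The neural group held 5 of them and the mesoderm group 3. At a mean of at least 100 the median ratio of highest to lowest clone was 1.23 in the bHLH genes and 1.21 in all tested genes.

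The pathways that act on these genes were examined by lists. Of all tested genes, limma-trend called 0.936% lower and 0.941% higher, and 7.15% were lower and 7.99% higher at an unadjusted p under 0.05. Of 35 Notch pathway genes 34 were tested, and limma-trend called 0 lower and 1 higher, with 1 lower and 3 higher at an unadjusted p under 0.05. The gene that rose was DLL3, an atypical ligand that acts against Notch signalling within the cell. It was at 511 and 513 in mock control and at 765, 1035 and 1072 in CFIm25-m. This is a log2 fold change of 0.89 (limma-trend, adjusted p = 0.0168). The adjusted p was 0.151 and 0.139 without mock controls 1 and 2, and 0.0708 without clone 2. POFUT1, the Notch O-fucosyltransferase, was at 1600 and 1590 against 2027, 2159 and 2105. Its adjusted p was 0.0572 by limma-trend, 0.0451 by edgeR and 0.00843 by DESeq2. The glycosyltransferase gene MFNG was at 62.2 and 62.7 against 108, 110 and 118 (limma-trend, adjusted p = 0.0662). For DLL3, POFUT1 and MFNG all clones lay above both controls. NOTCH3, the receptor of the list with the highest level, was at 6249 and 6361 against 4955, 5023 and 6365, where clone 3 lay at the level of the controls. Without clone 3 it passed limma-trend, at an adjusted p of 0.00513.

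Of 25 BMP and SMAD pathway genes 23 were tested, and limma-trend called 1 lower and 0 higher, with 5 lower and 1 higher at an unadjusted p under 0.05. Both count tests called the same gene alone. Limma-trend called 0.936% of all tested genes lower and 0.941% higher, and 7.15% and 7.99% had an unadjusted p under 0.05 in those directions. BMP7, a ligand, was at 605 and 595 in mock control and at 364, 386 and 328 in CFIm25-m. This is a log2 fold change of -0.74 (limma-trend, adjusted p = 0.0147). Its adjusted p was 0.25 and 0.21 without mock controls 1 and 2, and 0.0662 without clone 1. The ligand gene BMP4 was at 165 and 114 against 87.2, 75.6 and 68.3, with all clones below both controls (limma-trend, adjusted p = 0.113). Another ligand gene, BMP2, went the other way, at 62.2 and 54.0 against 88.2, 64.8 and 78.9, with all clones above both controls (limma-trend, adjusted p = 0.455). The gene that was higher at an unadjusted p under 0.05 was the receptor gene ACVR2A, at 221 and 208 against 275, 281 and 290. ACVR2B, the receptor of highest level, was at 4491 and 4320 against 4369, 4291 and 3777. Whether BMP or Notch genes have a part in the HES3 and ID values was not tested.

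**Figure D4:**
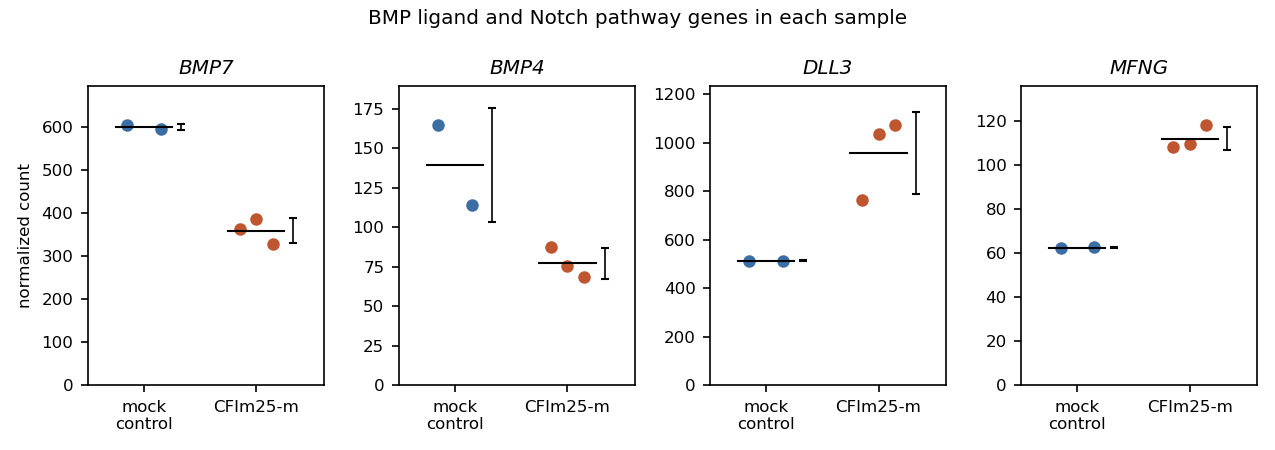
Normalized count of BMP7, BMP4, DLL3 and MFNG in each of the 2 mock control and 3 CFIm25-m samples (points), with the group mean (long line) and the SD beside it (bars); each axis starts at 0. The clones lie below both controls for BMP7 and BMP4 and above both for DLL3 and MFNG, and DLL3 and BMP7 are the 2 genes with an adjusted p under 0.05. The ligand gene BMP2, not drawn, had all clones above both controls.

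For the partners and targets of the bHLH-PAS factors, limma-trend called 0 of 18 hypoxia response genes, with 2 lower and 3 higher at an unadjusted p under 0.05. It called 0 of 16 tested circadian clock partners, with 2 lower and 1 higher at that level, and edgeR and DESeq2 called 0 in both lists. Among all tested genes 7.15% were lower and 7.99% higher at an unadjusted p under 0.05, and limma-trend called 0.936% and 0.941%. ADM, a hypoxia target, was at 677 and 730 against 1654, 2052 and 934, so that every clone lay above both controls by unequal amounts. Its log2 fold change was 1.06 (limma-trend, adjusted p = 0.0786), and without clone 3 it passed, at an adjusted p of 7.8e-05. P4HA2, in the same list, went the other way, at 269 and 341 against 202, 202 and 201, with all clones below both controls. The log2 fold change of P4HA2 was -0.58 (limma-trend, adjusted p = 0.0961), and without clone 3 the adjusted p was 0.0453. CRY1, a clock repressor, was at 1063 and 1067 against 937, 830 and 753, with an adjusted p of 0.185 by limma-trend. The choice of ADM, P4HA2, CRY1, POFUT1, MFNG, BMP4, BMP2, ACVR2A and single marker genes was made with their values in view.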

How the data were processed

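The 2 mock control and 3 CFIm25-m samples were grouped by their labels, which say control or knockout with a replicate number. The names mock control and clone follow the study's text, and clones are numbered here as the replicates are. The submitters' processing notes name HISAT2, featureCounts, Subread, DESeq2 and hg38, and versions and a strand setting are not given in the sources used here. The values the authors deposited are a normalized signal, in which the reads of a gene are scaled by the sample's size factor, and not raw counts. Every value was a whole multiple of its sample's smallest value, within 0.01 of a read, and reads were recovered for 100% of values. In CFIm25-m replicate 1 a read is worth 1.00, so its steps lie close to whole numbers. Its reads were taken from the unrounded decimals in the same way, and their recovery is less certain than in the other samples. Floors of 3 reads cover counting error only.

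The main test was limma-trend (limma 3.58.1, R 4.3.3) on log2(value + 1), which understates the change of low genes. The filter was 10 or more in at least 2 samples, which a low gene can pass only through the group where it is high. P-values were adjusted by Benjamini-Hochberg over all 19232 tested genes. Since the values were not raw counts, the count tests on recovered reads (edgeR 4.0.16 quasi-likelihood, DESeq2 1.42.0) were alternatives. Others were a change of scaling, filter, pseudocount or variance model, leaving out samples in turn, and a replicate block. The tests were also run on simulated counts with the same dispersion for every gene and both groups. That setting cannot show how they behave where the clones differ more than the controls. The columns that the authors deposited for their own comparison, made with DESeq2 (group means, log2 fold change, p-values), were not used.

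The members, role lists and pathway lists were chosen with earlier results of these data known. Named genes were NUDT21, the called bHLH genes, the 8 tested bHLH genes of smallest p in each direction, tested ID, HES, HEY, MYC network and E protein genes, the 2 highest per kb of each other role, and in the pathway lists the called genes and the highest ligand or receptor. Other genes named in the text, including those below the filter, were chosen after their values were seen. Role lists matched 91 of 92 members. For 30 members a listed gene overlaps on the opposite strand. Promoter windows are from RefSeq on GRCh38.p14 and were matched by symbol for 75 members, and gene positions are as deposited. All 90 members with a RefSeq position overlapped it. The result for 1 bHLH gene is not reported here.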

Additional observations from a re-analysis of the deposited data

How the results depend on the processing

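HES3 kept its direction in every alternative, and its call under both count tests, both other scalings, both other filters and both other pseudocounts. DESeq2 called 2 bHLH genes lower and 280 lower and 349 higher genes in all, against 180 and 181 by limma-trend. Notch pathway calls were 2 by edgeR, DESeq2 and TMM scaling, with POFUT1 added to DLL3. Without the variance trend, limma called 0 bHLH genes, 0 Notch genes and 0 BMP and SMAD genes, and 25 lower and 21 higher genes in all. With 1 sample left out, calls ran from 0 to 3 for lower bHLH genes, 34 to 533 and 25 to 536 for all lower and higher genes, 0 to 5 for Notch, 0 to 1 for BMP and SMAD and 0 to 3 for hypoxia genes. For lower bHLH genes and for all genes the highest counts came without clone 3 and the lowest without a control, where the lone control is assumed to vary like the clones.

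Replicate numbers pair no samples here: deviations of same-numbered samples had correlations of 0.0072 and 0.018 across genes. With the replicate block, which leaves clone 3 without a partner and 1 residual degree of freedom, 7 bHLH genes were lower and 3 higher, and 1064 and 1043 genes in all, with 6 Notch, 5 BMP and SMAD, 6 hypoxia and 3 clock calls. The sign turned under the block for MLXIP (-0.0473), MXD4 (0.00419) and HEYL (0.0924). With 1 sample left out, the log2 fold change crossed 0 for HEY1 -0.248 to 0.119, HEYL -0.163 to 0.0924, MAX -0.00275 to 0.166, MLXIP -0.0473 to 0.193, MNT -0.0912 to 0.0369, MXD1 -0.258 to 0.0201, MXD4 -0.121 to 0.00679, SREBF2 -0.0896 to 0.00831 and TCFL5 -0.031 to 0.163. None of these 9 genes was called by limma-trend on all samples. Of 472 values for the 48 named genes under the other settings 454 kept their direction and side of the threshold, and of 240 with 1 sample left out 212 did. Depth limits the 24 untested members and those at a few reads. The cause of these changes was not tested.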
